A study of Homo sapiens with 4 samples.

Results

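The integrin, laminin and collagen genes were taken from the table of gene expression by their names. Names beginning with ITGA or ITGB and a digit or V, or with LAMA, LAMB or LAMC and a digit, were kept, as were names made of COL, a number, A and a number alone. The rule found 52 of the 17755 listed genes. Of these, 47 encode an integrin subunit, a laminin chain or a collagen chain, and the other names are 3 antisense transcripts, the pseudogene ITGB1P1 and ITGB3BP, whose product is a centromere protein. The RNA-Seq experiment asked which genes responded when the long non-coding RNA LINC00622 was depleted in A375 and SK-MEL-28, which are established human melanoma cell lines. Each line was transfected with a control siRNA (siNC) or with siRNA against LINC00622 (siLINC00622), kept in serum-free medium for 6 h, and then kept for 24 h in medium with 10% serum. There was 1 library for each of the 4 conditions, so within a line no ratio has a replicate check, and fewer cells expressing a gene cannot be told apart from less RNA per cell.

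Integrins are receptors made of an α and a β subunit that anchor cells to the extracellular matrix and signal from it. Laminins, trimers of an α, a β and a γ chain, and type IV collagen build the basement membrane, while the fibrillar collagens form the fibres of connective tissue. In melanoma, cells must cross the basement membrane to invade the dermis, and the pair of ITGAV and ITGB3 is a known mark of the invasive growth phase.

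The libraries held between 31269923 and 36384819 counts. In SK-MEL-28, LINC00622 had 309 counts with siNC and 135 with siLINC00622, a 2.32-fold lower scaled level. Its counts in A375 were 135 and 86, a 1.77-fold lower scaled level. All 10 melanocyte lineage markers were listed and all 10 were higher in SK-MEL-28. Their summed level was between 134 and 167 FPKM (counts scaled for gene length and library size) in A375, most of it from SOX10, against 2203 to 2407 FPKM in SK-MEL-28. In A375 siNC the pigment cell genes TYR, MLANA and PMEL were at 0.210, 0.982 and 2.24 FPKM. Of the markers of other cell types, 1 of 7 for fibroblasts, 3 of 6 for keratinocytes, 1 of 5 for endothelium and 0 of 7 for leukocytes were listed. KRT14, DSC3 and KDR had between 1.29 and 7.01 FPKM in A375 siNC and 0.0804 FPKM or less in SK-MEL-28 siNC. LUM, a fibroblast marker, went the other way with 2.24 and 9.08 FPKM in the same order, and KRT10 had 25.2 and 19.0 FPKM.

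Both lines expressed laminin, integrin and collagen genes at high levels, but the leading genes differed in part. Levels between genes are compared as FPKM, which are scaled for gene length. In A375, LAMC1, the common laminin γ chain, was highest with a mean of 107 FPKM over the siNC and siLINC00622 libraries. It was followed by COL9A3 with 57.6, ITGA6 with 56.7, COL5A2 with 50.1 and ITGA3 with 49.8 FPKM. In SK-MEL-28, the laminin receptor subunit ITGA6 led with 66.5 FPKM, followed by COL9A3 with 63.2, ITGB3 with 58.2 and LAMC1 with 57.5 FPKM. ITGA6, COL9A3, LAMC1, ITGB1 and its pseudogene ITGB1P1 were among the 10 highest in each line. By contrast, COL5A2 had 0.745 FPKM and ITGA3 had 1.89 FPKM in SK-MEL-28. In A375, 40 of the 52 genes reached 1 FPKM in both libraries, and in SK-MEL-28 28 did.

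**Figure D1:**
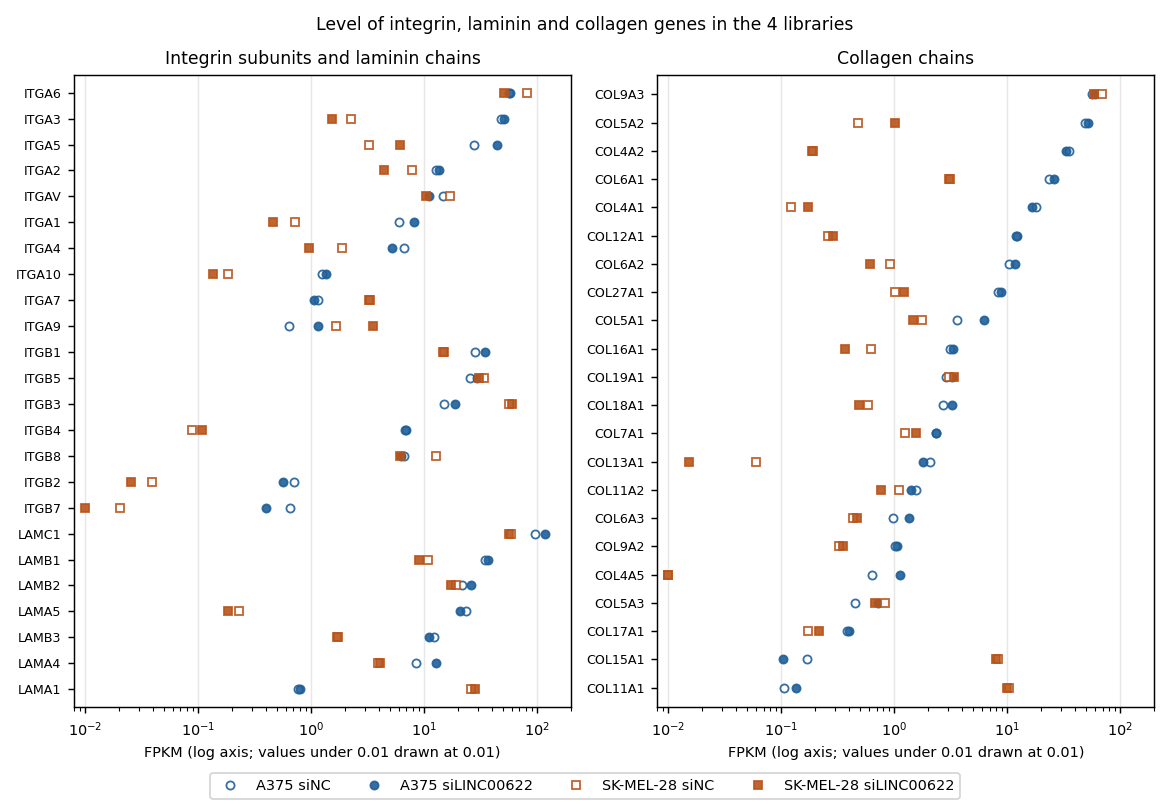
Level of 46 of the 47 subunit and chain genes in the 4 libraries, as FPKM on a log axis, with circles for A375 and squares for SK-MEL-28, open for siNC and filled for siLINC00622; each point is 1 library, and values under 0.01 are drawn at 0.01. The pairs of points of a line mostly lie close together while the lines lie apart, as for LAMA5 and LAMA1.

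The cell line separated these genes far more than the treatment did. Differences between the lines were tested over all 4 libraries with edgeR's quasi-likelihood test, with treatment as a covariate and a Benjamini-Hochberg adjusted p under 0.05 over 16742 genes. Of the 52 genes, 9 were higher in SK-MEL-28, or 17.3%, where 33.3% of all genes tested were. In the other direction, 36 were higher in A375, or 69.2%, where 34.4% of all genes tested were. The median log2 difference of SK-MEL-28 over A375 was -1.29 for the 52 genes and -0.04 for all genes. Past a 16-fold difference, 13 of the genes were higher in A375 and 3 in SK-MEL-28, against 6.09% and 3.54% of all genes. The melanocyte markers also separate the lines, and their part in these differences was not tested. The direction was the same in the siNC and in the siLINC00622 libraries for 50 of the 52 genes. The fit has 1 residual degree of freedom. With both terms fitted, its spread is the difference of the treatment ratio between the lines, moderated by a prior over all genes. With library totals in place of the TMM scaling, all log2 values of SK-MEL-28 over A375 move by -0.17, and the counts become 6 and 37. Without the A375 siNC library, in a fit with the line alone, 5 genes were higher in SK-MEL-28.

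**Figure D2:**
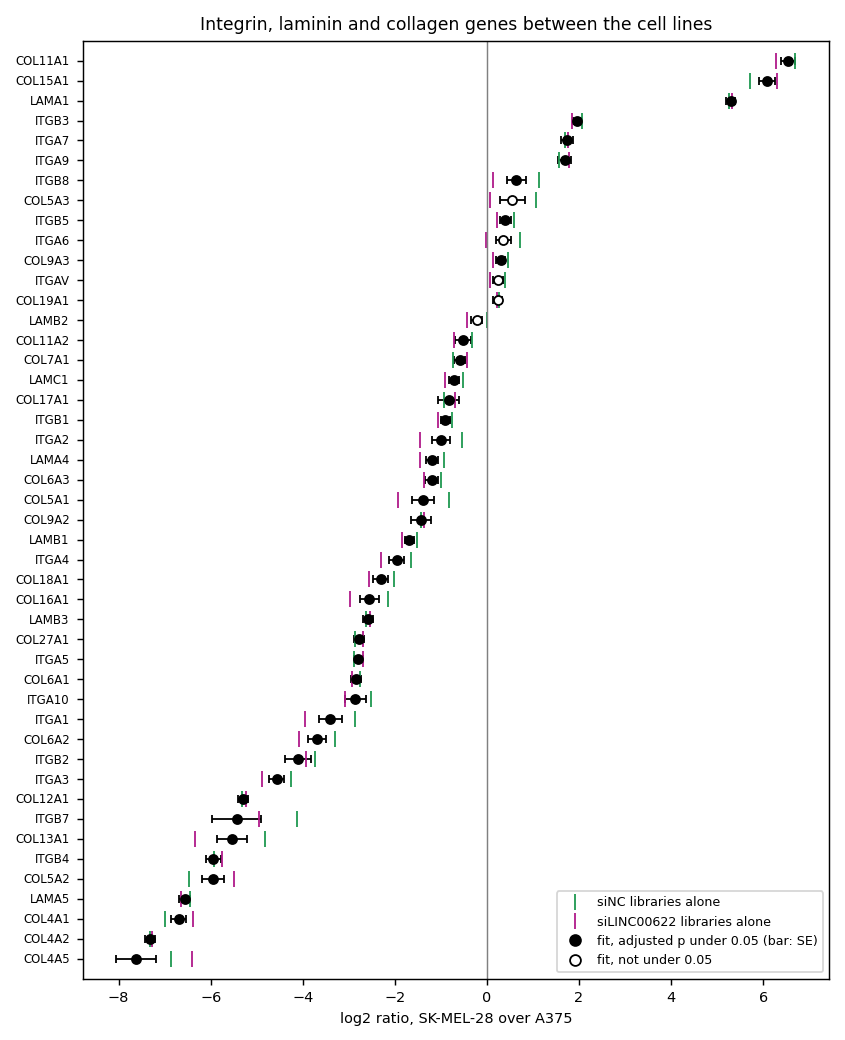
Log2 ratio of SK-MEL-28 over A375 for 46 of the 47 subunit and chain genes, with the edgeR estimate as a point, its SE as a bar, and the ratio within the siNC or the siLINC00622 libraries as ticks. COL11A1, COL15A1 and LAMA1 stand alone on the right at 6.54, 6.08 and 5.29; the estimate of COL4A5, which had 0 and 3 counts in SK-MEL-28, depends on the prior count.

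Among the integrin α subunits, the table lists 10 of the 13 searched for. The genes past 1.5-fold higher in both lines under LINC00622 knockdown were ITGA5, which pairs with ITGB1 into the classical fibronectin receptor, and ITGA9, which binds tenascin-C and other ligands. ITGA5 (ENSG00000161638, chromosome 12) had 6363 counts in siNC and 11857 in siLINC00622 of A375, and 801 and 1538 in SK-MEL-28. Both siLINC00622 libraries were therefore above the siNC library of their own line, while both A375 libraries stayed above both of SK-MEL-28. The log2 ratio was 0.71 in A375 (95% interval for counting error 0.66 to 0.75) and 0.91 in SK-MEL-28 (0.79 to 1.03). ITGA9 (ENSG00000144668, chromosome 3) went from 164 to 347 counts in A375 and from 458 to 999 in SK-MEL-28, with log2 ratios of 0.88 (0.62 to 1.17) and 1.09 (0.93 to 1.26). It was the lowest α subunit of A375 siNC by FPKM, at 0.634, and reached 3.54 FPKM in SK-MEL-28 siLINC00622.

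The treatment was tested across the lines, with the line as a covariate, by the same edgeR fit. It called 2 of the 52 genes higher, ITGA5 and ITGA9, where 0.197% of all genes tested were called, and 0 lower, where 0.251% were. ITGA5 rose by a log2 fold change of 0.80 ± 0.10 (SE, 2 pairs of libraries, adjusted p = 0.0398, edgeR). ITGA9 rose by 1.00 ± 0.13 (SE, adjusted p = 0.046, edgeR). These calls lie close to the threshold. With library totals the edgeR adjusted p was 0.0761 and 0.0811, and over all genes 1 was called higher and 0 lower. With only genes of at least 50 counts the edgeR adjusted p was 0.135 for both, and 0 of all genes were called. Over all alternatives of this fit, the adjusted p of ITGA5 ranged from 5.22e-07 (DESeq2) to 1 (edgeR without the line as a covariate). At an unadjusted p under 0.05, 10 of the 52 genes were found, where 14.5% of all genes tested were. DESeq2 also called ITGAV lower, and it called 162 lower over all genes.

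The stretch around the start of ITGA5 is shown because this gene was the most abundant of those called. It is the RefSeq promoter window of GRCh38.p14 on the minus strand of chr12:54419257-54419516, 250 bases before the start and 10 from it on. Capitals mark matches to the motifs searched.

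ITGA5: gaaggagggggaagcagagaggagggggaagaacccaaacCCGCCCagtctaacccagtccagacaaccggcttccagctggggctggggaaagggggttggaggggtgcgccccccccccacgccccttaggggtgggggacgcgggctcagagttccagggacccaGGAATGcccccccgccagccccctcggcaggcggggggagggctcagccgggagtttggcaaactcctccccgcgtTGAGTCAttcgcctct

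The motifs were searched on both strands of this window as exact letters. The AP-1 motif TGACTCA has 1 match, at base 245, read on the other strand and ending on the first transcribed base. Windows of 260 bases hold it at 4.44% of the 35116 starts of the RefSeq table. The TEAD motif GGAATG has 1 match at base 169 (12.5% of windows) and the GC box GGGCGG 1 match at base 41 (43.1% of windows). The E-box CACGTG has 0 matches (6.6% of windows). The letters CCAAT also have 0 matches (32.7% of windows). The same holds for the TATA box TATAAA (10.9% of windows). No binding was measured here, and the matches are a description of letters only.

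The other 8 α subunits had log2 ratios below 0 in SK-MEL-28, and their median over all 10 was -0.58, against -0.00 for all genes. In that line 5 of the 10 were past 1.5-fold lower, where 6.49% of all genes were, and 2 were past 1.5-fold higher, where 4.56% were. ITGA4, a receptor subunit for VCAM1 and fibronectin, had 661 and 347 counts in siNC and siLINC00622, a log2 ratio of -0.96 (-1.15 to -0.77). ITGA2, the collagen receptor subunit of platelets and epithelia, had 2050 and 1186 counts, a log2 ratio of -0.82 (-0.93 to -0.72). ITGAV, the subunit shared by the vitronectin receptors, had 4672 and 2933 counts (log2 ratio -0.70), ITGA6 had 18179 and 11590 (-0.68), and the collagen receptor subunit ITGA1 had 447 and 294 (-0.63). All these intervals lay apart from 0. The laminin receptor subunit ITGA3 was at -0.53 and ITGA10 at -0.40, and ITGA7 was level at 697 and 707 counts.

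In A375 the α subunits had mixed directions. Their median log2 ratio was 0.11, against 0.02 for all genes, and 0 of the 10 were past 1.5-fold lower, where 4.06% of all genes were. ITGA4 went from 2211 to 2033 counts and ITGAV from 3803 to 3331, so that their log2 ratios of -0.31 (-0.40 to -0.22) and -0.38 (-0.45 to -0.31) had the direction of SK-MEL-28 at a smaller size. ITGA1 went from 3471 to 5496 counts, a log2 ratio of 0.47 (0.41 to 0.53), opposite to SK-MEL-28. ITGA2 was at 0.10 and ITGA6 at 0.06. Across the lines, ITGAV had a log2 fold change of -0.54 ± 0.11 (SE, adjusted p = 0.104, edgeR) and ITGA4 one of -0.61 ± 0.16 (SE, adjusted p = 0.166, edgeR), and neither passed. ITGA1 contains the gene PELO on the same strand, whose reads cannot be told apart by strand.

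**Figure D3:**
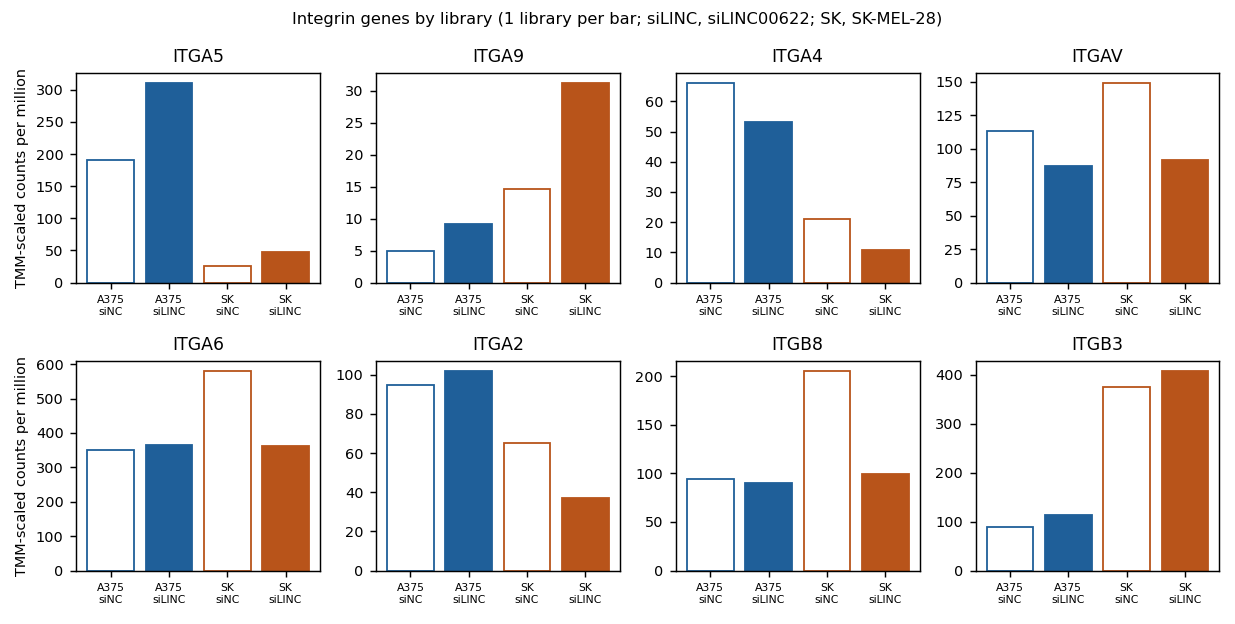
TMM-scaled CPM (counts scaled to the library size) of 8 integrin genes in the 4 libraries, 1 library per bar, open for siNC and filled for siLINC00622, from 0 on each axis. ITGA5 and ITGA9 have a higher filled bar in each line; ITGA6, ITGA2 and ITGB8 have a lower filled bar in SK-MEL-28 and nearly level bars in A375.

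Between the lines, the makeup of the α subunits differed as well. ITGA3 had 14791 and 18315 counts in the siNC and siLINC00622 libraries of A375 and 728 and 514 in SK-MEL-28, 23.8-fold higher in A375 (adjusted p = 1.34e-06, edgeR). ITGA5 was 6.93-fold higher in A375 (adjusted p = 1.17e-06, edgeR). In the opposite direction, ITGA7, a laminin receptor subunit of muscle, was 3.32-fold and ITGA9 3.21-fold higher in SK-MEL-28. Of the summed FPKM of the 10 α subunits, ITGA6 made up 32.0% in A375 siNC and 68.2% in SK-MEL-28 siNC. The share of ITGA5 was 15.7% in siNC and 22.7% in siLINC00622 of A375, and 2.72% and 7.47% in SK-MEL-28. ITGAV and ITGA6 themselves were not called between the lines, with 0.23 ± 0.11 and 0.36 ± 0.16 on the log2 scale (SE, adjusted p = 0.0934 and 0.0895, edgeR). These fitted values average over unlike treatments. For SK-MEL-28 over A375, the siNC libraries alone gave 0.39 for ITGAV and 0.73 for ITGA6. The siLINC00622 libraries gave 0.07 and -0.01.

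Of the 8 integrin β subunits searched for, the table lists 7, and all 7 were called between the lines. Of these, 3 were higher in SK-MEL-28 and 4 in A375, where 33.3% and 34.4% of all genes tested were. ITGB1, the partner of most α subunits, had 12779 and 18337 counts in A375 and 7113 and 7412 in SK-MEL-28, and was 1.87-fold higher in A375. ITGB3, the partner of ITGAV in the vitronectin receptor, was 3.89-fold higher in SK-MEL-28, with 11788 and 13066 counts against 2991 and 4335 in A375 (adjusted p = 4.13e-06, edgeR). It made up 47.6% of the summed β subunit FPKM in SK-MEL-28 siNC and 18.1% in A375 siNC. ITGB5, another partner of ITGAV, was near level between the lines, 1.32-fold higher in SK-MEL-28. ITGB4, which pairs with ITGA6 in hemidesmosomes, had 1434 and 1723 counts in A375 and 20 and 25 in SK-MEL-28, 61.7-fold higher in A375. ITGB2 and ITGB7, known from leukocytes, stayed under 1 FPKM in every library. ITGB7 had 65 counts in siLINC00622 of A375 and 0 in that of SK-MEL-28, at least 18.2-fold higher against a floor of 3 counts.

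Under knockdown, 1 of the 5 β subunits that passed the filter in SK-MEL-28 was past 1.5-fold lower, where 6.49% of all genes were. ITGB8, a partner of ITGAV that activates latent TGF-β, had 6434 counts in siNC and 3182 in siLINC00622, a log2 ratio of -1.05 (-1.11 to -0.99). In A375 its counts were 3138 and 3442, a log2 ratio of -0.06 (-0.13 to 0.01). The siNC library of SK-MEL-28 thus stood above the other 3 libraries, among which the scaled levels were close. For ITGB3 the log2 ratios were 0.12 (SK-MEL-28) and 0.34 (A375), for ITGB1 0.03 and 0.33. In A375, where 4.06% of all genes were past 1.5-fold lower, ITGB7 was so at -0.64, with 90 and 65 counts. Across the lines, edgeR called 0 of the 7 β subunits, where 0.197% of all genes tested were called higher and 0.251% lower. ITGB3 and ITGB8 were the 2 with an unadjusted p under 0.05, where 14.5% of all genes tested were. DESeq2 and limma-voom also called 0 of them.

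The laminin genes showed an exchange of the α chain between the lines. LAMA5, the most widespread adult laminin α chain, had 10428 and 10930 counts in siNC and siLINC00622 of A375 and 110 and 90 in SK-MEL-28, 94.8-fold higher in A375 (adjusted p = 1.92e-07, edgeR). LAMA1, the α chain of embryonic basement membranes, had 382 and 458 counts in A375 and 13662 and 15405 in SK-MEL-28, 39.1-fold higher in SK-MEL-28 (adjusted p = 1.92e-07, edgeR). Differences between the lines were common, with 33.3% of all genes tested called higher in SK-MEL-28 and 34.4% called higher in A375. LAMA1 accordingly made up 86.1% of the summed α chain FPKM in SK-MEL-28 siNC and 2.36% in A375 siNC, where LAMA5 made up 71.6%. LAMA4, the α chain of vessel walls, took 26.1% in A375 siNC and 13.1% in SK-MEL-28 siNC. The table lists 8 of the 12 laminin genes searched for. Of these, LAMA1 alone, or 12.5%, was called higher in SK-MEL-28, where 33.3% of all genes tested were. In the other direction 6, or 75%, were called higher in A375, where 34.4% of all genes tested were.

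The β and γ chains differed less. LAMC1 had 25470 and 36058 counts in A375 and 16511 and 16172 in SK-MEL-28, and was 1.64-fold higher in A375. LAMB2 had 4639 and 6573 counts in A375 and 4341 and 4051 in SK-MEL-28 and was not called between the lines. It took 60.4% of the β chain FPKM in SK-MEL-28 siNC, while LAMB1 took 50.8% in A375 siNC. LAMB3, a β chain of epithelial laminin, had a log2 value of -2.59 for SK-MEL-28 over A375.

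Under knockdown the laminin genes stayed near level. In SK-MEL-28 0 of 8 passed 1.5-fold in either direction, where 4.56% of all genes were higher and 6.49% lower. The log2 ratios of the chains named here lay between -0.31 for LAMA5 and 0.14 for LAMA1 in that line. In A375, LAMA4 alone passed, where 4.86% of all genes were past 1.5-fold higher. It had 3182 and 5549 counts and a log2 ratio of 0.61 (0.55 to 0.68), which is at 0.58 and under 1.5-fold with library totals. Its share of the α chain FPKM was 36.8% in siLINC00622 of A375. LAMA4 in SK-MEL-28 was at 0.07 (-0.03 to 0.17). LAMC1 and LAMB2 both had a log2 ratio of 0.31 in A375 and of -0.06 and -0.13 in SK-MEL-28.

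Of the 22 collagen chains, 17 were called higher in A375 and 3 in SK-MEL-28, where 34.4% and 33.3% of all genes tested were. The network-forming type IV collagen of basement membranes was far higher in A375. COL4A1 had 8246 and 8731 counts in siNC and siLINC00622 of A375 and 59 and 86 in SK-MEL-28, 104-fold higher in A375. COL4A2 had 21022 and 23297 counts in A375 and 122 and 124 in SK-MEL-28, 159-fold higher in A375 (adjusted p = 1.92e-07, edgeR). COL4A5 had 238 and 483 counts in A375 and 0 and 3 in SK-MEL-28, at least 74.3-fold higher in the siNC libraries against a floor of 3 counts. Both COL4A1 and COL4A2 lie head to head on chromosome 13, on the minus and the plus strand, and the stretch between their RefSeq starts is shown because the pair shared its pattern. It is 126 bases of GRCh38.p14, given on the plus strand as chr13:110307158-110307283, with motif matches in capitals.

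COL4A1-COL4A2: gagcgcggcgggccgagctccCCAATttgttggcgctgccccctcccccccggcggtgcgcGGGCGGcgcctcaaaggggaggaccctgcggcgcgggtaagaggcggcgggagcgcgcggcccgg

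It holds 1 CCAAT match at base 22, which 21.1% of windows of this length before a start hold, and 1 GC box GGGCGG at base 62 (34.6% of windows). The AP-1, TEAD, E-box and TATA box letters have 0 matches on either strand, where 2.46%, 5.89%, 4.04% and 5.87% of such windows hold them. In the GENCODE 29 annotation the genes overlap on opposite strands, and since the library kit does not mark strand, reads from the overlap cannot be told apart.

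Of the 6 listed fibrillar collagens, 4 were called higher in A375 and 1 in SK-MEL-28, where 34.4% and 33.3% of all genes tested were. COL5A2, a chain of the type V collagen that starts fibres, had 11162 and 13695 counts in A375 and 116 and 253 in SK-MEL-28, 61.8-fold higher in A375. COL11A1, a chain of the related type XI collagen of cartilage, had 30 and 45 counts in A375 and 3114 and 3072 in SK-MEL-28, 93.2-fold higher in SK-MEL-28 (adjusted p = 2.97e-07, edgeR). COL1A1, COL1A2 and COL3A1, the main collagens of fibroblasts, were not analysed here, as 6 of the 11 fibrillar genes searched for are in the table. Among the other classes, COL15A1, a collagen of the basement membrane zone, had 35 and 25 counts in A375 and 1815 and 1800 in SK-MEL-28, 67.7-fold higher in SK-MEL-28. COL12A1, which decorates fibres, and the transmembrane COL13A1 were 39.2-fold and 46.6-fold higher in A375. All 4 listed genes of the beaded filament and anchoring class were called higher in A375, where 34.4% of all genes tested were. Among them, COL6A1 had 4070 and 5242 counts against 566 and 579. COL9A3, the most abundant collagen chain in both lines, was nearly level, with 8483 and 10426 counts in A375 and 10925 and 9621 in SK-MEL-28, 1.23-fold higher in the latter (adjusted p = 0.0335, edgeR). It made up 24.0% of the collagen FPKM in A375 siNC and 66.2% in SK-MEL-28 siNC. COL9A3 overlaps TCFL5 on the opposite strand.

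Under knockdown 3 collagens of A375 and 1 of SK-MEL-28 were past 1.5-fold higher, and no collagen passed in the same direction in both. In A375, where 4.86% of all genes were past 1.5-fold higher, COL5A1 went from 1247 to 2545 counts (log2 ratio 0.84, 0.74 to 0.94), COL4A5 from 238 to 483 (0.83, 0.60 to 1.06) and COL5A3 from 95 to 176 (0.69, 0.33 to 1.07). Where 4.06% of all genes were past 1.5-fold lower, COL15A1 was the 1 collagen of A375, with 35 and 25 counts and an interval of -1.48 to 0.11 that holds 0. In SK-MEL-28, 4.56% of all genes were past 1.5-fold higher and 6.49% lower. There COL5A2 went from 116 to 253 counts, a log2 ratio of 1.08 (0.77 to 1.42). COL16A1 went from 189 to 116 (-0.73, -1.08 to -0.39) and COL13A1 from 23 to 6 counts (-1.67, -3.56 to -0.63). COL5A1 had 656 and 557 counts in SK-MEL-28, a log2 ratio of -0.27 (-0.43 to -0.10), opposite to A375. COL4A1 was at -0.11 in A375 (-0.15 to -0.06) and at 0.50 in SK-MEL-28 (0.02 to 1.02), where it had 59 and 86 counts. COL4A2 was at -0.04 and -0.01 in the same order. Across the lines edgeR called 0 collagens, where 0.197% of all genes tested were called higher and 0.251% lower. An unadjusted p under 0.05 was found for 2, where 14.5% of all genes tested had one. DESeq2 and limma-voom also called 0 collagens.

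Over the whole set, few genes passed in both lines. In SK-MEL-28, 48 of the 52 genes passed the filter of 10 counts in 1 library, of which 3 were past 1.5-fold higher, or 6.25% where all genes gave 4.56%, and 8 were lower, or 16.7% where all genes gave 6.49%. In A375 all 52 passed, with 6 higher and 3 lower, or 11.5% and 5.77%, where all genes gave 4.86% and 4.06%. The shares of higher genes in SK-MEL-28 and of lower genes in A375 were thus near those of all genes. Their median log2 ratios were -0.03 for SK-MEL-28 and 0.10 for A375. Higher in both were ITGA5 and ITGA9, where 0.768% of all genes were, and 0 genes were past 1.5-fold lower in both, where 1.01% of all genes were. Of the 48 genes, 18 were above 0 in both lines and 11 below 0 in both, against 32.5% and 29.8% of all genes. Below 0 in SK-MEL-28 and above 0 in A375 were 16, where 21.2% of all genes were, and 3 had the reverse, where 16.6% of all genes had. The difference of the ratios between the lines could not be tested, since an interaction term leaves no residual degrees of freedom. With the edgeR exact test at an assumed dispersion of 0.1, which compares libraries and not conditions, 1 of the 52 genes passed in SK-MEL-28, a lower gene, and 0 in A375.

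**Figure D4:**
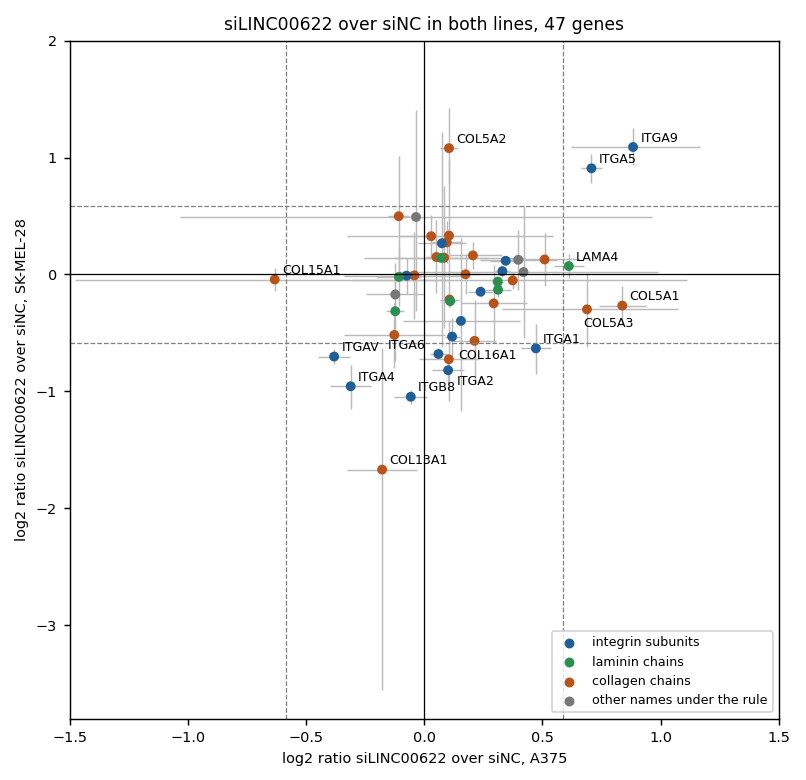
Log2 ratio of siLINC00622 over siNC in A375 (horizontal) and SK-MEL-28 (vertical) for 47 of the 48 genes that reached 10 counts in both lines, coloured by class; grey bars are 95% intervals for counting error and dashed lines mark 1.5-fold. ITGA5 and ITGA9 are alone in the upper right corner, and the lower left corner past both lines is empty.

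Under knockdown, genes that act with integrins inside the cell stayed mostly within 1.5-fold, as most of all genes did. Of 40 focal adhesion genes searched for, 36 are listed. In SK-MEL-28, 0 of them were past 1.5-fold, where 4.56% of all genes were higher and 6.49% lower. In A375, 2, or 5.56%, were past 1.5-fold higher and 0 lower, where 4.86% and 4.06% of all genes were. The 2 were LPP, a zyxin family protein, with 1312 and 2500 counts, and the kinase PTK2B with 76 and 147, both named here after their values were seen. LPP was also higher in SK-MEL-28, with 2862 and 4308 counts and a log2 ratio of 0.56, and its edgeR adjusted p across the lines was 0.0589. Of the other matrix receptors, 20 of 22 are listed and 0 were past 1.5-fold in either line, against the same shares of all genes.

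Among matrix glycoproteins and collagen processing genes, 49 of 64 are listed, of which 46 passed the filter in SK-MEL-28 and all 49 in A375. SK-MEL-28 had 4 past 1.5-fold higher and 8 lower, or 8.7% and 17.4% against 4.56% and 6.49% of all genes. A375 had 6 higher, or 12.2% against 4.86% of all genes, and 0 lower, where 4.06% of all genes were. The median log2 ratio of this list was 0.03 for SK-MEL-28, and for A375 it was 0.26. FBN1, which forms microfibrils, was the only gene of the list past 1.5-fold higher in both lines, with 1355 and 3372 counts in A375 and 19 and 37 in SK-MEL-28. It rose across the lines by a log2 fold change of 1.10 (adjusted p = 0.0398, edgeR), although its counts in SK-MEL-28 were few. The tenascin TNC, a ligand of ITGA9, had 50184 and 33365 counts in SK-MEL-28, but 28465 and 43493 in A375. FN1, which encodes the fibronectin bound by the receptor of ITGA5, had 179512 and 123970 counts in SK-MEL-28 (log2 ratio -0.57), and 6611 and 6212 in A375 (-0.28). The ligand therefore had ratios below 0 in the lines in which ITGA5 rose, and across the lines FN1 was not called (adjusted p = 0.106, edgeR). FBN1, TNC and FN1 were chosen after their values were seen.

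The names that are no subunit followed the genes they are named after in part. ITGB1P1, a processed pseudogene of ITGB1, had 511 and 769 counts in A375 and 242 and 270 in SK-MEL-28, with log2 ratios of 0.40 and 0.13 beside 0.33 and 0.03 for ITGB1. Their sequences were not compared here, and whether the counting split reads between them was not tested. ITGB2-AS1 had 54 and 26 counts in A375, a log2 ratio of -1.18 (-1.98 to -0.55), and 2 and 0 in SK-MEL-28. It overlaps ITGB2 on the other strand, and reads of the pair cannot be told apart. The antisense transcripts LAMC1-AS1 and ITGB8-AS1 had between 18 and 74 counts in a library, and neither was past 1.5-fold. In SK-MEL-28, ITGB8-AS1 had a log2 ratio of 0.49 beside -1.05 for ITGB8, with an interval of -0.31 to 1.40 that holds 0. ITGB3BP was between 754 and 1114 counts in every library.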

How the data were processed

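RNA-Seq libraries of A375 and SK-MEL-28 cells treated with siNC or siLINC00622 were assigned to 4 groups by line and treatment as labelled, with 1 library in each. The authors deposited 1 table with counts per gene, whole numbers without normalization. Per the file headers, the table also gives CPM, which are counts scaled to the library total, and FPKM, which the authors scaled for gene length as well. The deposited TPM columns were not used. The values of 1 gene of the set are not reported here, though it is in the counts. The submitters' processing notes name HISAT2, TopHat2, Bowtie2, HISAT and the build hg19, without versions or roles. The counting and the annotation are not given in the sources used here. The RNA was poly(A)-selected and sequenced as paired ends, and the library kit named in the methods does not mark strand.

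Counts were scaled by TMM over the 4 libraries with edgeR 4.0.16 in R 4.3.3. Within a line, the ratio of siLINC00622 to siNC was taken on the log2 scale after adding a prior count of 2, for genes that reached 10 counts in either library, and a ratio past 1.5-fold was called. Their 95% Clopper-Pearson intervals cover counting error only, since reads carry no molecular identifiers. Line and treatment were fitted together by edgeR's quasi-likelihood test (glmQLFit, glmQLFTest) for 16742 genes with at least 10 counts in 1 library, and p-values were adjusted by Benjamini-Hochberg over all of them. The common dispersion was 0.00895 and the prior degrees of freedom were 5.78, with 1 residual degree of freedom. The libraries of a line are the pairs of the treatment fit. With line and treatment fitted, p-values measure how far the treatment ratio differs between the lines, moderated by the prior over genes. The labels do not say whether cultures were independent, so this spread may be technical in part. The fit was tested on simulated data with planted changes.

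Alternatives were library totals, DESeq2 1.42.0 size factors and its Wald test, limma 3.58.1 voom, other filters, prior counts and fold thresholds, deposited FPKM, each term alone, and each library left out. The scaling by the 2 libraries of a line was added after seeing the data. Named were the 10 most abundant genes of a line, those past 1.5-fold with at least 50 counts, those called, the 10 largest line differences each way, and their partners. The members and lists were chosen with earlier results of these data known. Symbols were matched by Ensembl identifier to GENCODE 29 for strand and overlaps (52 of 52 genes), and 37 have a promoter window in the RefSeq table. Figures used Python 3.11.15 with matplotlib 3.10.9.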

Additional observations from a re-analysis of the deposited data

Results flagged for a closer look

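For 4 genes the knockdown ratios pointed in opposite directions in the lines, with both counting intervals apart from 0 and at least 1 ratio past 1.5-fold. The share of all genes that met this rule was not counted. By sign alone, 21.2% of all genes past the filter in both lines were below 0 in SK-MEL-28 and above 0 in A375. The reverse held for 16.6%. For COL5A1, SK-MEL-28 had a log2 ratio of siLINC00622 over siNC of -0.27 and A375 one of 0.84. The values were -0.63 and 0.47 in the same order for ITGA1, -0.82 and 0.10 for ITGA2, and -0.68 and 0.0598 for ITGA6. In A375, ITGA2 and ITGA6 were thus nearly level, with intervals of 0.0329 to 0.1689 and 0.0243 to 0.0954. With 1 library per condition the difference between the lines was not tested.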

How the results depend on the processing

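Each count of genes past 1.5-fold is set against the main value. The SK-MEL-28 count of 8 lower genes became 4 with deposited FPKM, 2 past 2-fold and 1 with the exact test at an assumed dispersion of 0.1, and the 3 higher became 0 with that exact test. The A375 count of 6 higher genes became 2 with deposited FPKM, 0 past 2-fold and 0 with the exact test, and the 3 lower became 0, 1 and 0 in that order. The pseudocount of 1 FPKM shrinks ratios of genes with low levels. Other scalings, filters and prior counts kept these counts within 1.5 times. Between the lines, leaving out each library in turn gave 5 to 11 genes higher in SK-MEL-28, with 5 without A375 siNC, and 31 to 34 higher in A375. The 2 genes called higher across the lines became 1 with DESeq2 size factors and 1 with a 2-fold threshold added. They became 0 with library totals, 0 with at least 50 counts and 0 without the line as a covariate. Over all genes, the main fit called 33 higher and 42 lower, and library totals called 1 and 0. With at least 50 counts, or without the line as a covariate, 0 of all genes were called. The cause was not tested. DESeq2's Wald test called 1 gene lower, ITGAV (adjusted p = 0.0145), where edgeR called 0. Over all genes, DESeq2 called 162 lower and edgeR 42. None of the recomputed ratios past 1.5-fold changed direction, while ratios of other genes near 0 were not followed. Leaving out a library in the treatment fit leaves no residual degrees of freedom and was not run. Depth limits genes under 50 counts most, such as COL15A1 in A375, whose interval holds 0.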
